A study of Arvicanthis niloticus with 59 samples.

Results

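The levels of 8 genes that encode myosin light chains were followed across organs of a diurnal rodent, the Nile grass rat (Arvicanthis niloticus). They were Myl1, Myl2, Myl3, Myl4, Myl6, Myl7, Myl9 and Mylpf, taken by symbol from the deposited gene tables, which held all 8 of them among 18970 genes. RNA came from 4 animals and 22 organs, sampled at 48 sites to give 59 libraries. The animals were named T3F, T173F, T426 and T424. All tissue was labelled as healthy and untreated, and the libraries were made from polyA-selected RNA with the Illumina TruSeq protocol; no label gave the age or strain of an animal. Libraries were grouped by the muscle that a site is known to hold. Skeletal muscle had 2 libraries (T3F and T426), and heart had 2, the right atrium of T3F and the right ventricle of T173F. Smooth-walled organs had 12 libraries from 11 sites: bladder, cecum and rectum of T173F, duodenum of T3F and T426, and ileum, jejunum, colon, uterus, renal artery, glandular stomach and non-glandular stomach of T3F. Central nervous tissue had 10 libraries from 9 brain and spinal cord sites, all of T3F apart from a further hippocampus of T426. The esophageal junction (T3F) and the trachea (T173F), tubes that can hold both skeletal and smooth muscle, and the other 31 libraries were described but entered no contrast between muscle types.

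A muscle myosin molecule has a pair of heavy chains, and each heavy chain carries an essential and a regulatory light chain on the neck that swings during the power stroke. The essential chains (here Myl1, Myl3, Myl4 and Myl6) stiffen the neck, and the regulatory chains (Mylpf, Myl2, Myl7 and Myl9) are phosphorylated by myosin light chain kinases, which starts contraction in smooth muscle and tunes it in striated muscle. Rodent tissues use them in sets: Myl1 with Mylpf in fast skeletal fibres, Myl3 with Myl2 in cardiac ventricle and slow skeletal fibres, Myl4 with Myl7 in atrium, and Myl6 with Myl9 in smooth muscle, with Myl6 and the Myl9 relatives Myl12a and Myl12b also in non-muscle cells.

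Levels are given as TPM, each gene's share of a library's transcripts scaled for transcript length, so that genes can be set beside each other within a library. Library depth, as the sum of expected counts, had a median of 16406604 (lowest 678819, highest 41309569), and the 8 libraries of T426 (1691561 to 3827321) were shallower than the 38 of T3F (12693819 to 41309569). All 12 skeletal fibre markers were at 1 TPM or more in both skeletal muscle libraries, and all 13 cardiomyocyte markers in both heart libraries. The renal pelvis of T426 also held all 12 fibre markers at 1 TPM or more, so this limit does not single out muscle. Myh4, for example, was at 56061 and 43670 TPM in the muscles of T3F and T426 and 38.3 TPM in that renal pelvis. Natriuretic peptide gene Nppa, made by atrial cells, was at 198930 TPM in the right atrium and 854 TPM in the right ventricle. The skeletal muscle library of T3F also held pancreatic acinar RNA, with summed acinar markers of 12829 TPM against 118.5 TPM in that of T426. Sciatic nerve held acinar RNA as well, with the acinar marker Ctrb1 at 56164 TPM in T426 and 2931 TPM in T3F. Ctrb1 was at 7578 TPM in the muscle of T3F. The renal pelvis of T426 held hepatocyte RNA, with Alb at 10235 TPM. Germ cell markers of the testis (summed 142423 TPM in testis) were also high in 4 libraries of T426, at 120297 TPM in retina, 44617 TPM in hippocampus, 22507 TPM in femur bone and 1965 TPM in sciatic nerve. The library labelled liver T3F held all 5 alveolar markers (summed 57584 TPM) with hepatocyte markers at a sum of 910.1 TPM, and the one labelled lung T3F held all 8 hepatocyte markers (summed 130916 TPM), so these libraries are named by their labels only.

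**Figure D1:**
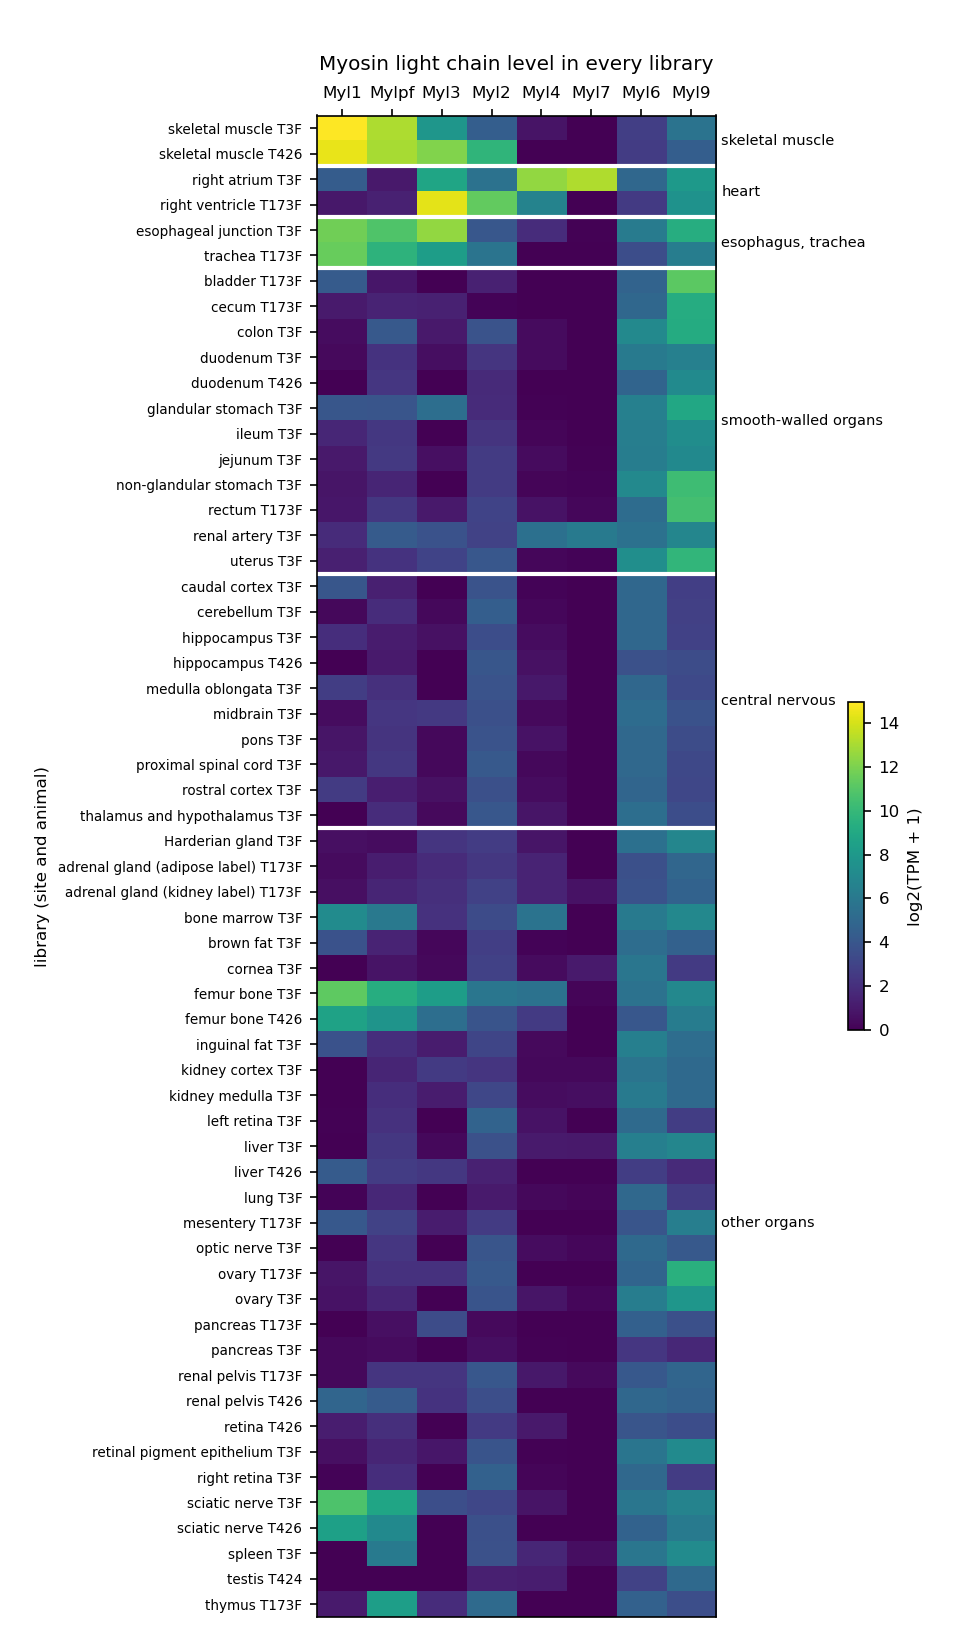
Level of each light chain gene in log2(TPM + 1), by colour, in each of the 59 libraries, which are grouped by muscle type. The fast pair is brightest in skeletal muscle, Myl3 in ventricle and Myl4 with Myl7 in atrium, while Myl6 and Myl9 are above 0 in every library.

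Each striated isoform had its highest level in the tissue it is known from. The fast skeletal essential chain Myl1 was at 31295 TPM in the skeletal muscle of T3F and 22516 TPM in that of T426. In the heart it was at 19.1 TPM in the atrium and 0.971 TPM in the ventricle, the latter resting on 3 counts. Across the 12 smooth-walled libraries its lowest, median and highest levels were 0, 1.08 and 18.9 TPM, the last in bladder. Both muscle libraries were thus above every heart, smooth-walled and central nervous library, and Myl1 was at 0 in 11 of the 59 libraries. In bulk tissue, fewer cells of a type and less RNA per cell cannot be told apart, here or in the results that follow.

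Mylpf, the fast skeletal regulatory chain, was at 8629 TPM in the muscle of T3F and 8093 TPM in that of T426. Heart had 1.03 TPM in the atrium and 1.61 TPM in the ventricle. Smooth-walled libraries ran from 0.881 through a median of 4.20 to 18.2 TPM, highest in renal artery, and central nervous libraries from 1.106 through 2.74 to 4.43 TPM. The muscle libraries differed 1.07-fold from each other and stood far above all of these. The testis library of T424 was the single one in which Mylpf was at 0.

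Myl3, the essential chain of ventricle and slow fibres, was at 20618 TPM in the right ventricle and 435.1 TPM in the right atrium. In skeletal muscle it was at 226.3 TPM in T3F and 4466 TPM in T426. The smooth-walled libraries had a lowest, median and highest level of 0, 0.783 and 41.2 TPM, with glandular stomach at the top. The 2 muscle libraries therefore enclosed the atrium and lay below the ventricle. Its partner Myl2, the regulatory chain of the same fibres, was at 2559 TPM in the ventricle, 49.1 TPM in the atrium, 21.3 TPM in the muscle of T3F and 869.9 TPM in that of T426. Myl2 was above 0 in all 59 libraries, and central nervous tissue (10.3, 13.3 and 21.4 TPM, highest in cerebellum) lay mostly above the smooth-walled organs (0.122, 4.45 and 15.6 TPM, highest in uterus).

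The atrial essential chain Myl4, which fetal muscle also uses, was at 5887 TPM in the right atrium and 102.1 TPM in the right ventricle. It was at 0.725 TPM in the muscle of T3F and 0 in that of T426, where 3 counts would have been worth 2.94 TPM. Its regulatory partner Myl7 was at 9172 TPM in the atrium and 0 in the ventricle, where 3 counts would have been worth 0.615 TPM. Myl7 was also at 0 in both muscle libraries, in all 10 central nervous libraries and in 41 of the 59 libraries in all. Outside the atrium the highest Myl7 level was 67.2 TPM in renal artery, and 2 further libraries, cornea and the one labelled liver T3F, passed 1 TPM.

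Myl6, the essential chain of smooth muscle and non-muscle myosin, was above 0 in every library, with a median of 31.5 TPM over all 59. The smooth-walled libraries ran from 26.2 TPM in bladder through a median of 74.0 TPM to 164.6 TPM in uterus. Skeletal muscle had 5.92 TPM (T3F) and 5.33 TPM (T426), and heart 31.3 TPM in the atrium and 4.85 TPM in the ventricle. Myl9, the smooth muscle regulatory chain, ran from 91.5 TPM in the duodenum of T3F through a median of 539.3 TPM to 2312 TPM in bladder. It was at 49.7 and 21.4 TPM in the muscles of T3F and T426, at 258.2 TPM in atrium and 197.0 TPM in ventricle, and at 5.96 to 12.4 TPM in central nervous tissue. The smooth-walled range of Myl9 lay wholly above the central nervous one, and that of Myl6 overlapped it (12.02 to 40.8 TPM in central nervous tissue).

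**Figure D2:**
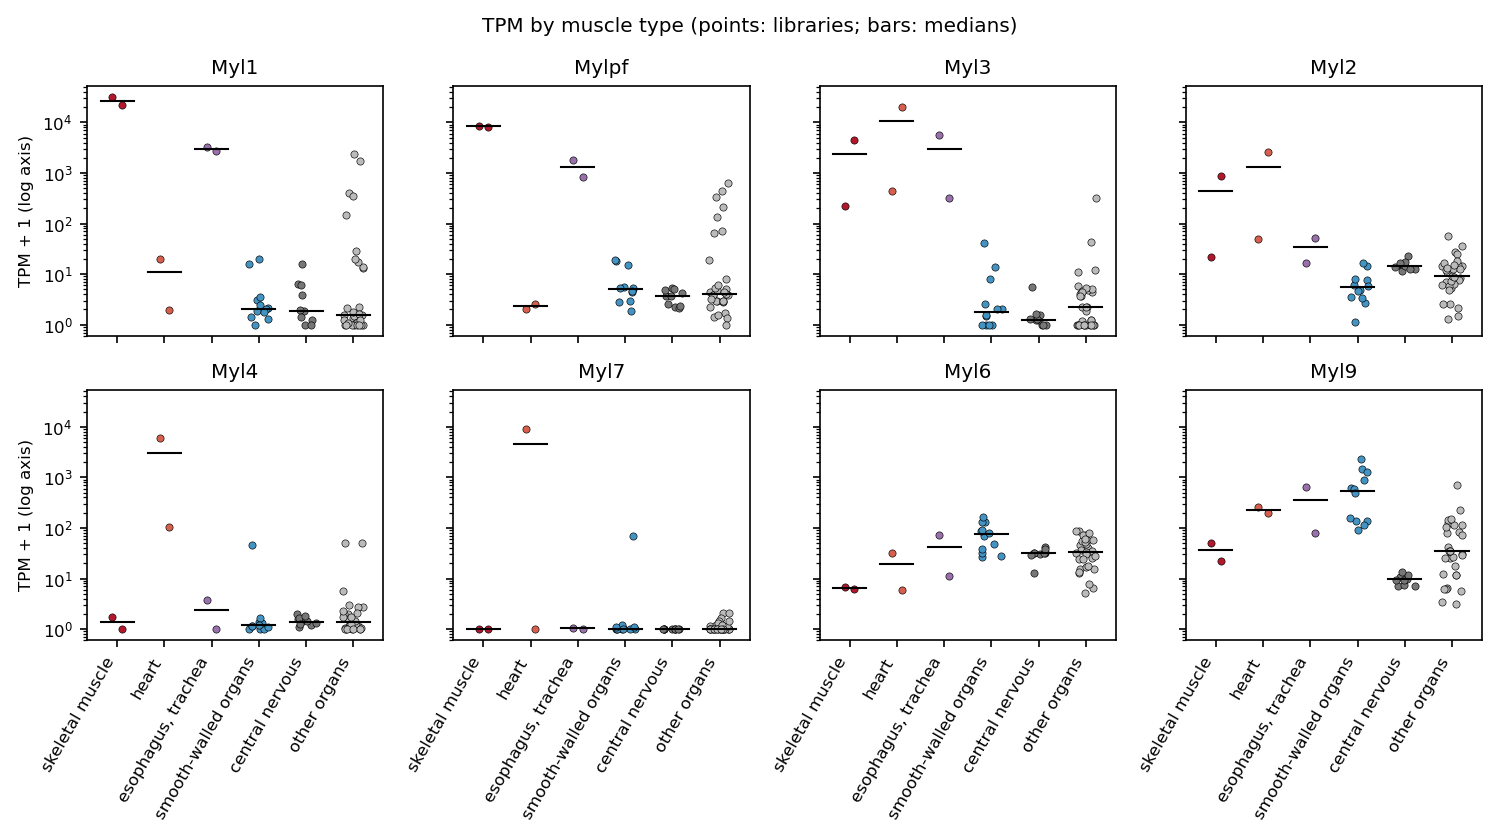
TPM + 1 on a log axis for each gene by muscle type, with 1 point per library and a bar at the median. The highest point is a skeletal muscle library for Myl1 and Mylpf, the ventricle for Myl3 and Myl2, the atrium for Myl4 and Myl7, and bladder, at 2312 TPM, for Myl9.

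Sites could be ordered for each gene, although most had a single library and so no spread. For Myl1, skeletal muscle (26905 ± 6208 TPM, SD, n = 2) was followed by the esophageal junction (3288 TPM), trachea (2783 TPM), femur bone (1379 ± 1390 TPM, SD, n = 2) and sciatic nerve (1054 ± 991 TPM, SD, n = 2). Femur bone and sciatic nerve did not differ beyond their spread. Mylpf kept that order at its head, with thymus (330.6 TPM) between femur bone (427.0 ± 305.1 TPM, SD, n = 2) and sciatic nerve (285.5 ± 213.2 TPM, SD, n = 2), again within the spread of those sites. Myl3 put the esophageal junction (5767 TPM) between ventricle and skeletal muscle (2346 ± 2998 TPM, SD, n = 2), and Myl2 put skeletal muscle (445.6 ± 600.0 TPM, SD, n = 2) directly after ventricle. For Myl9 the order after bladder was rectum (1435 TPM), non-glandular stomach (1276 TPM), uterus (890.9 TPM) and the esophageal junction (640.1 TPM). Myl6 was highest in uterus, non-glandular stomach (130.7 TPM), colon (127.8 TPM) and glandular stomach (89.6 TPM), a narrower range than that of any other member.

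Shares within each class of chain showed which isoform made up most of it. Of the summed TPM of the 4 essential chains, Myl1 took 99.3% in the muscle of T3F and 83.4% in that of T426, with Myl3 at 0.718% and 16.5%. Of the 4 regulatory chains, Mylpf took 99.2% and 90.1% in the same libraries, with Myl2 at 0.245% and 9.68%. The ventricle was made up of Myl3 (99.5% of essential) and Myl2 (92.8% of regulatory), with Myl9 at 7.15% of regulatory. In the atrium Myl4 took 92.4% and Myl3 6.83% of essential, and Myl7 took 96.7% of regulatory. In bladder, Myl9 took 99.9% of these 4 regulatory chains, and Myl6 (58.1%) and Myl1 (41.9%) shared the 4 essential ones. These shares cover the 8 genes only: in bladder the regulatory chain Myl12a was at 2490 TPM, above Myl9, and the essential chain Myl6b at 110.6 TPM, above Myl6 and Myl1 together. The classes did not sum to equal TPM, and essential over regulatory TPM was 3.62 and 3.004 in the muscles of T3F and T426, 7.52 in ventricle, 0.672 in atrium and 0.0195 in bladder.

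**Figure D3:**
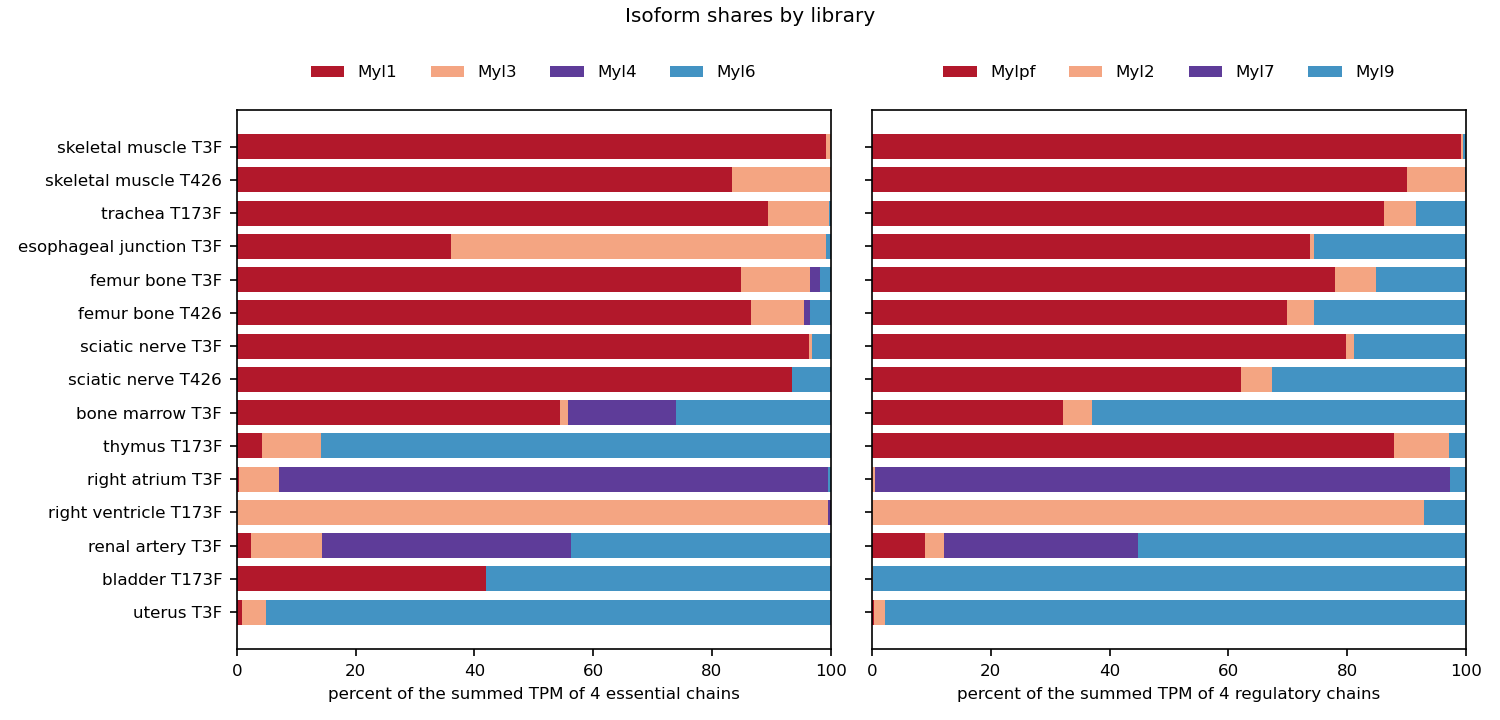
Stacked bars give each gene's percent of the summed TPM of the 4 essential chains (left) and of the 4 regulatory chains (right), 1 bar per library. Skeletal muscle, ventricle and atrium each show 1 leading isoform per class, while the esophageal junction splits its essential chains between Myl1 (36.0%) and Myl3 (63.2%).

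The contrasts between types were tested with edgeR's quasi-likelihood test on the counts, with Benjamini-Hochberg adjustment over all 16945 genes tested, and calls needed an adjusted p under 0.05 and a log2 fold change of 1 or more in either direction. Libraries of different sites, some from 1 animal, stand as replicates of a type, so the p-values measure the spread between these libraries. Skeletal muscle was first set against heart, the other striated muscle. Both fast chains were called higher in skeletal muscle and no member was called lower, 2 of 8 where 3.94% of all genes tested were called (2.19% higher). By edgeR, Mylpf was higher by a log2 fold change of 13.29 ± 1.89 (SE; adjusted p = 2.02e-04) and Myl1 by 11.91 ± 3.22 (adjusted p = 0.0356). The Myl1 call was lost when any of the 4 striated libraries was left out, with adjusted p from 0.0687 to 0.241 at log2 fold changes of 10.98 to 15.54.

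The atrial pair was not called in that contrast by edgeR, with the atrium high and the ventricle low inside the heart group. Myl4 had a log2 fold change of -11.71 ± 3.54 (adjusted p = 0.0628 by edgeR), and DESeq2 (adjusted p = 1.40e-14) and limma on log2(TPM + 1) (adjusted p = 4.61e-05) called it lower in skeletal muscle. Myl7, without a count in muscle, was at least 20404-fold lower there than in the heart group by mean CPM (counts scaled to library size), against a floor of 3 counts over both muscle libraries, and its adjusted p was 0.262 by edgeR and 4.24e-05 by DESeq2. Myl3 (log2 fold change -1.66 ± 2.34) and Myl2 (-1.09 ± 1.18) overlapped between muscle and heart, with edgeR adjusted p of 0.781 and 0.699. Myl6 (-1.12 ± 0.92) and Myl9 (-1.97 ± 1.03) were not called either, with edgeR adjusted p of 0.580 and 0.322. The median log2 fold change of the 8 genes was -1.39, beside -0.15 over all genes tested.

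Against smooth-walled organs, the fast and the slow chains were called higher in skeletal muscle and the smooth muscle pair lower. That made 4 members higher and 2 lower, where 25.2% of all genes tested were called (11.1% higher and 14.1% lower). By edgeR, Myl1 was higher by a log2 fold change of 13.27 ± 1.46 (adjusted p = 1.50e-07), Mylpf by 10.88 ± 0.77 (adjusted p = 7.53e-11), Myl3 by 8.45 ± 1.44 (adjusted p = 9.73e-05) and Myl2 by 6.90 ± 0.72 (adjusted p = 5.38e-08). For each of these 4 genes both muscle libraries lay above all 12 smooth-walled libraries. How many of all genes tested had ranges without overlap was not counted in any contrast, so such ranges only describe the members. Myl6 was lower by a log2 fold change of -3.04 ± 0.88 (adjusted p = 0.0117) and Myl9 by -3.23 ± 0.98 (adjusted p = 0.0159), again with no overlap of the ranges. Those last calls by edgeR were lost without the muscle of T3F (adjusted p = 0.0965 for Myl6 and 0.0583 for Myl9) and without that of T426 (0.162 and 0.226). With the libraries of T3F alone, the Myl3 change was 5.12 and not called (adjusted p = 0.0709 by edgeR). Myl4 at -1.84 ± 2.41 was not called (adjusted p = 0.580 by edgeR), and Myl7 was at 0 in muscle and in all but 5 of the smooth-walled libraries. The median of the 8 was 2.53, beside -0.56 over all genes tested.

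In heart against smooth-walled organs, the ventricular and the atrial pairs were both called higher, 4 of 8 members where 13.7% of all genes tested were called (7.43% higher). By edgeR, Myl3 was higher by a log2 fold change of 10.11 ± 1.503 (adjusted p = 3.43e-05), Myl2 by 7.99 ± 0.73 (adjusted p = 1.99e-08), Myl4 by 9.87 ± 1.43 (adjusted p = 2.46e-05) and Myl7 by 9.99 ± 2.44 (adjusted p = 0.0136). Myl3, Myl2 and Myl4 did not overlap between the groups. Myl7 overlapped, since the ventricle was at 0 and renal artery was not, and without the atrium library its direction turned (-8.80, adjusted p = 0.593 by edgeR) and Myl4 lost its call (4.72, adjusted p = 0.0938). Myl6 at -1.92 ± 0.79 was not called (adjusted p = 0.0981 by edgeR) but was called lower in heart with the animal as a block (-1.81, adjusted p = 3.67e-03), by DESeq2 (adjusted p = 0.0199), by limma with either pseudocount (0.0136 and 0.0114) and, by edgeR, without the atrium (-4.10, adjusted p = 0.0411). Mylpf (-2.40 ± 1.08), Myl9 (-1.26 ± 0.84) and Myl1 (1.37 ± 1.43) were not called, with edgeR adjusted p of 0.132, 0.313 and 0.539. The median of the 8 was 4.68, beside -0.27 over all genes tested.

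Smooth-walled organs were compared with central nervous tissue, whose muscle lies in the walls of blood vessels. Of the 8 genes, 6 were called higher in smooth-walled organs, where 50.7% of all genes tested were called (27.3% higher). By edgeR, Myl9 was higher by a log2 fold change of 6.51 ± 0.56 (adjusted p = 5.28e-10) and Myl6 by 1.80 ± 0.39 (adjusted p = 3.33e-04). Mylpf (1.89 ± 0.52, adjusted p = 2.74e-03) and Myl3 (4.07 ± 1.27, adjusted p = 6.90e-03) were called by edgeR with overlapping ranges, and neither was called by limma on log2(TPM + 1), with adjusted p of 0.0680 and 0.274. Myl4 (3.37 ± 1.17, adjusted p = 0.0140) and Myl7 (at least 190-fold higher by mean CPM, against 3 counts over the central nervous group; adjusted p = 0.0146) rested on the renal artery library. The count of 6 was the same without the libraries of T426. Without renal artery Myl4 was at -0.65 (adjusted p = 0.354) and Myl7 had too few counts to be tested. Myl2 at -1.06 ± 0.51 was not called by edgeR (adjusted p = 0.0693) and was called lower in smooth-walled organs by DESeq2 (-1.14, adjusted p = 0.0348), and Myl1 at 0.91 ± 0.92 was not called (adjusted p = 0.391 by edgeR). The median of the 8 was 2.63, beside 0.14 over all genes tested. Smooth muscle markers summed to 853.3 to 38614 TPM in smooth-walled libraries and 86.4 to 224.6 TPM in central nervous ones; their part in the result was not tested.

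**Figure D4:**
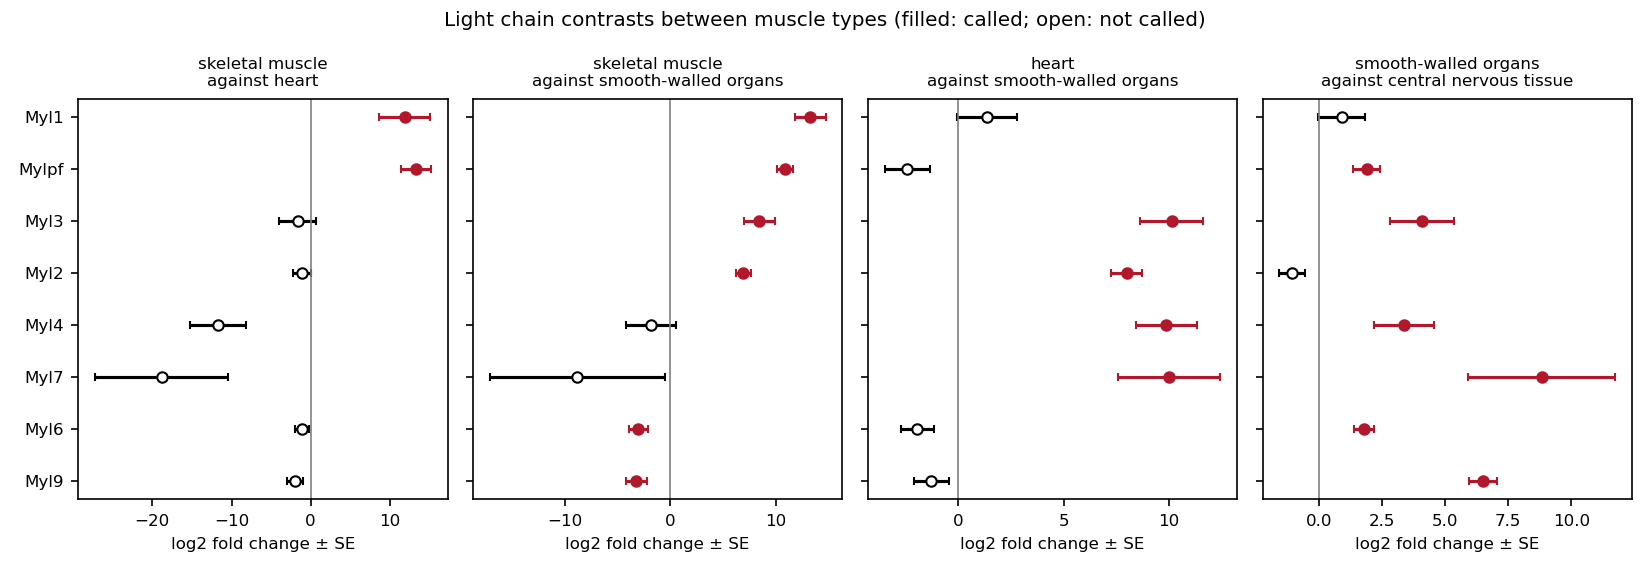
Log2 fold change with its SE for each gene in the 4 contrasts between muscle types, with filled points for called genes. Mylpf is at 13.29 in skeletal muscle against heart and Myl9 at 6.51 in smooth-walled organs against central nervous tissue, and the widest error bars are those of Myl7 in skeletal muscle, where it had no count.

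Between the right atrium and the right ventricle, 1 library each and from different animals, there was no test, and chamber and animal cannot be told apart. Myl3 was 47.4-fold and Myl2 52.1-fold higher in the ventricle by TPM. Myl4 was 57.7-fold, Myl1 19.7-fold and Myl6 6.45-fold higher in the atrium, and Myl9 differed 1.31-fold. Myl7 was listed at 9172 TPM in the atrium and 0 in the ventricle. Each chamber thus held a low level of the other's essential chain, and the atrium also one of Myl2, while no count of Myl7 was found in the ventricle. The atrial peptide gene Nppa and the calcium pump inhibitor sarcolipin gene (Sln, 6203 TPM in atrium and 7.53 TPM in ventricle) differed in the same direction as Myl4 and Myl7.

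The 2 skeletal muscle libraries also differed from each other in the slow pair. By TPM, Myl3 was 19.7-fold and Myl2 40.9-fold higher in T426, whereas Myl1 was 1.39-fold and Myl9 2.33-fold higher in T3F. Slow-fibre markers summed to 12380 TPM in T426 and 1003 TPM in T3F, with slow troponin T (Tnnt1) at 5325 and 429.0 TPM, slow troponin I (Tnni1) at 886.3 and 45.7 TPM and slow myosin heavy chain (Myh7) at 1140 and 172.9 TPM. The cardiac transcription factor gene Nkx2-5 and the cardiomyocyte marker genes Nppb and Bmp10 were at 0 in both. The cardiac heavy chain Myh6, which the same marker list holds, was at 89.3 TPM in T3F and 937.7 TPM in T426. From that list Sln (3.33 TPM in T3F and 107.7 TPM in T426), Tnnt2 (0.198 and 3.21 TPM) and Tnni3 (0.851 and 3.07 TPM) were also higher in T426. Myh7 and, slightly, Tbx5 were so too. Actc1 (1126 TPM in T3F and 193.8 TPM in T426), Pln (4.05 and 2.86 TPM), Nppa and Ryr2 were higher in T3F. The part of cardiac RNA in these levels was not tested. The label of the T3F library places the sample at the femur and that of T426 gives no place, so the muscle sampled and the animal cannot be told apart.

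Outside muscle itself, fast light chains were found at several sites beside other skeletal fibre genes. The esophageal junction held Myl1 at 3288 TPM and Mylpf at 1845 TPM, with Myl3 at 5767 TPM and Myl9 at 640.1 TPM. Relative to the mean of the skeletal muscle libraries, Myl1 was there at 12.2% and Mylpf at 22.1%, beside a median of 18.6% over 12 skeletal fibre markers. Trachea held 10.3% of the muscle level of Myl1 and 9.79% of that of Mylpf, beside a marker median of 9.40%. No such share is given for the slow pair, since its levels in the muscles of T3F and T426 lay far apart. Myl3 in the esophageal junction was above both muscle libraries (226.3 and 4466 TPM), and in trachea, at 317.5 TPM, it lay between them. Myl2 was at 51.7 TPM in trachea, between the muscle levels of 21.3 and 869.9 TPM, and at 15.7 TPM in the esophageal junction, below both.

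Femur bone had Myl1 at 2362 TPM in T3F and 395.9 TPM in T426, which were 8.78% and 1.47% of the muscle mean. The fibre markers were at medians of 8.60% and 1.67% in those libraries. Sciatic nerve had Myl1 at 1755 TPM in T3F and 353.0 TPM in T426, or 6.52% and 1.31%, beside marker medians of 5.28% and 1.29%. At both sites Myl1 moved with the fibre markers from animal to animal, and the part of attached muscle in these levels was not tested. Acinar RNA was far higher in the sciatic nerve of T426 than in that of T3F, and its part was not tested either. In sciatic nerve the slow essential chain Myl3 was at 11.1 TPM in T3F and had no count in T426, where 3 counts would have been worth 4.54 TPM.

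Blood-forming and lymphoid sites differed in how the fast chains stood to the fibre markers. In bone marrow Myl1 was at 148.1 TPM, Mylpf at 64.2 TPM and Myl4 at 49.7 TPM, close to the Myl4 level in the femur bone of T3F (49.4 TPM). The marrow library held all 12 skeletal fibre markers, at a median of 0.473% of muscle, beside Myl1 at 0.550% and Mylpf at 0.768%. Of 13 cardiomyocyte markers, 8 were at 0 there, Nppa among them. In thymus Mylpf was at 330.6 TPM with Myl1 at 1.15 TPM, which put Mylpf at 3.95% and Myl1 at 0.00429% of muscle, beside a marker median of 0.0185%. Spleen had Mylpf at 71.5 TPM and Myl1 at 0, with Mylpf at 0.855% of muscle beside a marker median of 0.0240%. Mylpf was thus present with its essential partner at or near 0 in thymus and spleen.

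Renal artery was the single smooth-walled site with the atrial pair, Myl7 at 67.2 TPM and Myl4 at 45.0 TPM. The other 11 smooth-walled libraries had at most 0.179 TPM of Myl7. Relative to the right atrium of the same animal, Myl7 was at 0.732% and Myl4 at 0.765%, so that Myl4 over Myl7 was 0.670 in renal artery and 0.642 in atrium. The natriuretic peptide genes Nppa and Nppb were at 0.670% and 0.747%, and their levels in renal artery (1332 and 24.3 TPM) were above those of all other smooth-walled libraries (at most 9.87 and 0.265 TPM). Other cardiomyocyte markers ran from 0.225% (Nkx2-5) to 6.503% (Actc1), with Bmp10 at 0, and several of them, such as Sln at 40.3 TPM, lay within the range of the other smooth-walled libraries (at most 277.4 TPM). In all, 10 of 13 cardiomyocyte markers were at 1 TPM or more. The part of atrial RNA in these levels was not tested.

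At 10 sites a library from each of 2 animals was at hand, which allowed a test over sites with replicate animals. In the F test over sites by edgeR, 6 of the 7 members tested were called at an adjusted p under 0.05, where 41.4% of all 17564 genes tested were called. Mylpf had the smallest adjusted p (1.17e-05), followed by Myl2 (2.64e-04), Myl1 (5.31e-04), Myl3 (5.82e-04), Myl4 (5.22e-03) and Myl9 (6.02e-03). Myl6, present at all of these sites, was not called (adjusted p = 0.172), and Myl7 had too few counts to be tested. Without the libraries of T426 most of these sites kept a single library, and fewer genes were called, among the members and among all genes alike.

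Each site was then set against the mean of the other 9, which gave 18 calls among 70 pairs of a member and a site, where 9.93% of all pairs of a gene and a site were called. Femur bone had 6 members called higher, where 10.2% of all genes tested were called (9.72% higher). There, by edgeR, Myl1 had a log2 fold change of 7.76 ± 1.12 (adjusted p = 3.18e-04), Mylpf 5.95 ± 0.54 (adjusted p = 6.41e-06), Myl3 6.67 ± 0.98 (adjusted p = 4.75e-04) and Myl4 6.44 ± 0.84 (adjusted p = 1.33e-04). Myl9 (2.55 ± 0.58) and Myl2 (2.39 ± 0.62) were also called there, but the Myl2 call was lost without either femur library and the Myl9 call without that of T426 (edgeR adjusted p = 0.109 to 0.159 and 0.270). The calls of Myl1, Mylpf, Myl3 and Myl4 in femur bone held in each of the 20 fits that left out 1 library, that of femur bone T426 with its germ cell RNA among them. By limma on log2(TPM + 0.1), however, the femur bone calls of Myl3 (adjusted p = 0.114) and Myl4 (adjusted p = 0.0532) were lost. Those of Myl2 and Myl9 were lost by limma with either pseudocount (adjusted p = 0.252 to 0.370). Skeletal muscle had 4 called higher, where 7.19% of all genes were called (6.19% higher), with Myl1 at 12.65 ± 1.22 and Myl2 at 6.07 ± 0.54, and without the muscle of T426 the Myl2 change was 2.24 (adjusted p = 0.129 by edgeR). Sciatic nerve had 2 called higher, where 5.06% were called (4.94% higher), Myl1 at 6.34 ± 1.12 and Mylpf at 4.03 ± 0.56. The part of acinar RNA in the sciatic nerve calls was not tested. Both calls by edgeR were lost without the sciatic nerve of T3F (adjusted p = 0.223 and 0.141).

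Among the 10 sites with 2 animals, Myl9 was highest in the ovary, which has contractile cells around its follicles. The part of these cells was not tested. Over all 48 sites the ovary ranked 9 for Myl9, below such sites as bladder (2312 TPM), rectum (1435 TPM) and uterus (890.9 TPM). Myl9 was at 701.5 TPM in the ovary of T173F and 228.8 TPM in that of T3F, both above the libraries of every other site with 2 animals. By edgeR it was higher there by a log2 fold change of 2.76 ± 0.57 (adjusted p = 0.0130) and Mylpf was lower by -4.10 ± 1.07 (adjusted p = 0.0485), 2 members where 3.68% of all genes were called (3.57% higher and 0.108% lower), and with the animal as a block both calls by edgeR were lost (adjusted p = 0.196 and 0.254). The Myl9 call was also lost without the ovary of T173F (1.85, adjusted p = 0.646 by edgeR), and the Mylpf call in 16 of the 20 fits that each left out 1 library. Hippocampus had Myl9 (-3.24) and Mylpf (-4.99) called lower, where 15.0% of all genes were called (2.06% lower), and retina the same pair (-3.06 and -3.31), where 21.1% were (4.12% lower). Those calls were lost when either library of the site was left out, and that of Mylpf in retina also without either hippocampus library or the duodenum of T426. Germ cell RNA was high in the T426 library of both sites, and its part in these results was not tested. No member was called in duodenum (where 8.96% of all genes were called), liver (8.56%), pancreas (13.0%) or renal pelvis (6.55%).

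**Figure D5:**
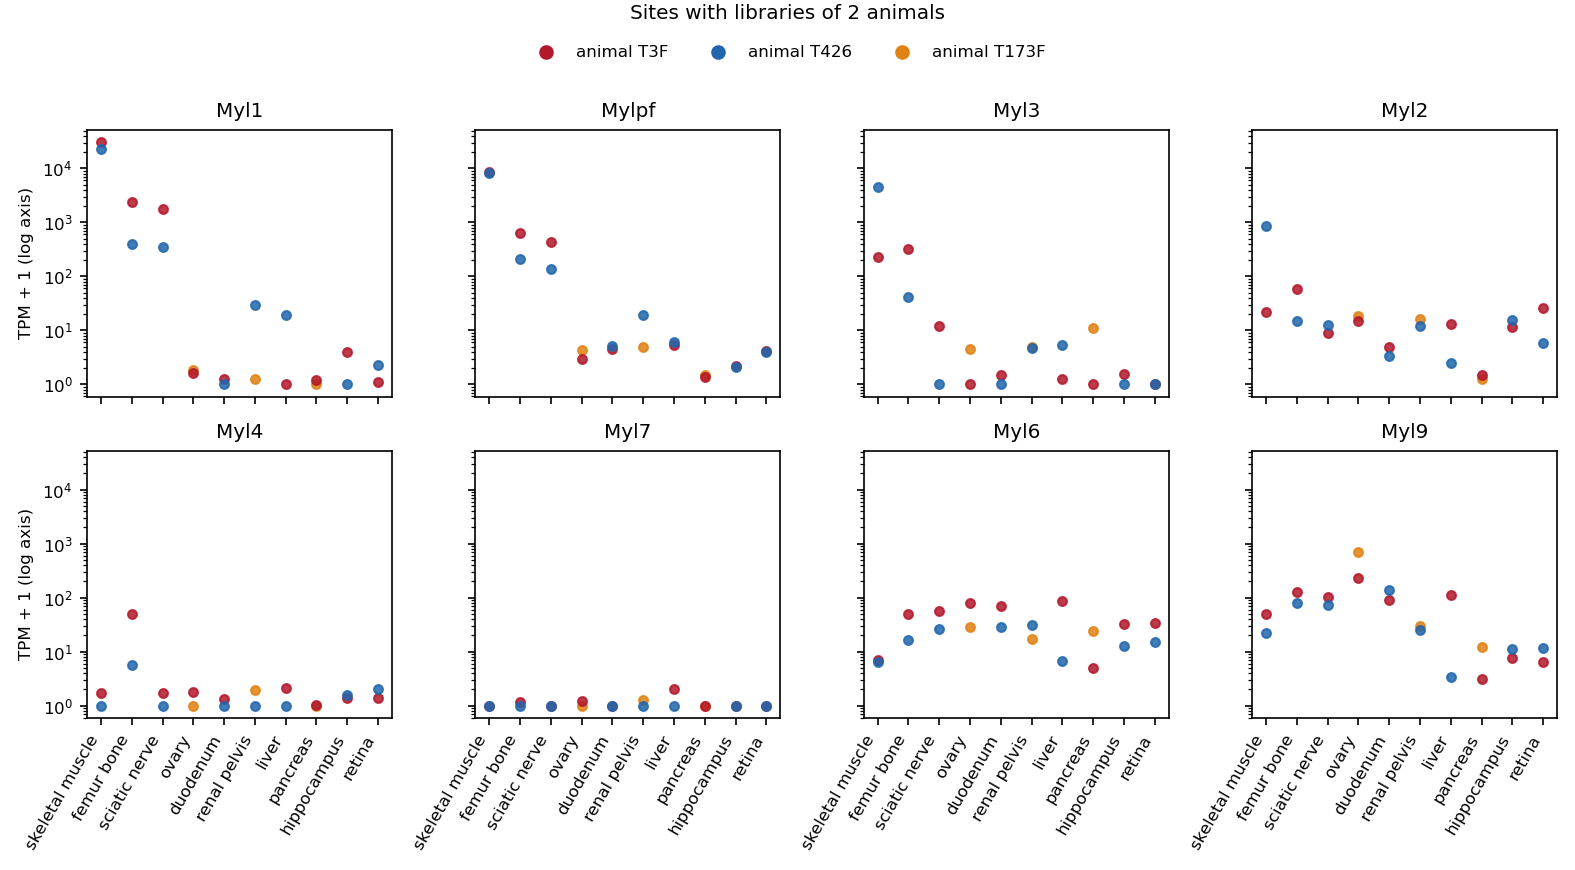
TPM + 1 on a log axis at the 10 sites with 2 animals, coloured by animal; the 2 retina sides of T3F are shown as their mean. Both skeletal muscle libraries stand at the top for Myl1 and Mylpf and that of T426 alone for Myl3 and Myl2, where the muscle of T3F lies below the femur bone of T3F; the ovary of T173F (701.5 TPM) is highest for Myl9.

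Light chain levels were also compared between animals T426 and T3F over the 7 sites that both gave. None of the 5 members tested was called by edgeR, where 0.00733% of all 13643 genes tested (1 gene) was called and 2438 genes had an unadjusted p under 0.05. DESeq2 and limma likewise called 0 of these members. Myl6 came nearest, with a log2 change of -1.02 ± 0.31 in T426 (adjusted p = 0.216 by edgeR). By TPM it was lower in T426 at 7 of 7 sites, with log2 differences of -3.72 to -0.13. On that scale the median change over all genes tested was itself -0.55, by limma on log2(TPM + 1). How many of all genes were lower at 7 of 7 sites was not counted. The difference of -3.72 was that of the liver pair, whose T3F library held alveolar markers. The next largest was -1.55 in femur bone. The libraries of T426 were all shallower, so animal and depth cannot be told apart. The germ cell RNA at 4 of the 7 sites was in T426 alone. Acinar RNA also differed between the animals, being higher in T426 in sciatic nerve and higher in T3F in skeletal muscle.

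The heavy chains that these light chains bind were read from a list of 13 genes. In skeletal muscle against heart, where 3.94% of all genes were called, 3 were called higher and 0 lower by edgeR: the fast chains Myh4 (log2 fold change 10.54, adjusted p = 0.0167), Myh2 (10.04, adjusted p = 0.0189) and Myh1 (4.85, adjusted p = 0.0211). Against smooth-walled organs, where 25.2% of all genes were called, 9 were higher in skeletal muscle and 2 lower, the smooth muscle chain Myh11 (-5.24) and the non-muscle chain Myh9 (-1.83), with a list median of 5.90. In heart against smooth-walled organs, beside 13.7% of all genes, 7 were higher, with Myh6 at 10.56 and Myh7 at 9.61, and 1 lower, Myh11 at -4.62. Smooth-walled organs had 7 higher and 3 lower than central nervous tissue, beside 50.7% of all genes called, with Myh11 at 8.03 and Myh7 at -3.18. The fast heavy chain Myh4 was at 56061 and 43670 TPM in the muscles of T3F and T426, and Myh11 at 4691 TPM in bladder, where Myl9 also peaked. Unlike Myl4 and Myl7, the cardiac heavy chain Myh6 was high in both chambers, at 10623 TPM in atrium and 24023 TPM in ventricle.

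Kinases and phosphatase subunits acting on the regulatory chains formed a list of 14. Skeletal muscle light chain kinase Mylk2 was higher in skeletal muscle than in heart by a log2 fold change of 12.19 (adjusted p = 1.31e-03 by edgeR), with 575.4 and 640.1 TPM in the muscles of T3F and T426. Cardiac kinase Mylk3 was lower by -7.21 (adjusted p = 0.0343 by edgeR), with 447.3 TPM in atrium and 535.5 TPM in ventricle, and Mylk4 was the other of 2 called higher, so that 3 of 14 were called beside 3.94% of all genes. Against smooth-walled organs, 4 of the list were higher and 2 lower in skeletal muscle, beside 25.2% of all genes called, and 3 were higher and 1 lower in heart, beside 13.7%. Mylk, the kinase of smooth muscle, was lower in both (-3.78 and -3.19). It was higher in smooth-walled organs than in central nervous tissue by 5.68 ± 0.53 (adjusted p = 1.90e-09 by edgeR), and stood at 675.2 TPM in bladder. In that contrast 4 of the list were higher and 1 lower, a smaller share than the 50.7% of all genes called.

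Of 5 other light chain genes listed, 4 were in the tables. The non-muscle regulatory chains Myl12a and Myl12b had higher medians over all 59 libraries, at 497.0 and 223.0 TPM, than Myl9, at 40.2 TPM. By edgeR, Myl12a was higher in smooth-walled organs than in central nervous tissue by a log2 fold change of 2.27 ± 0.22 (adjusted p = 3.01e-09), 1 of 3 called higher in that contrast, where 27.3% of all genes were called higher, and 0 were called in the other 3 contrasts. Myl9, Myl12a and Myl12b encode closely related proteins, as do Myl6 and Myl6b, and how the authors' counting divided shared reads between them bears on their levels.

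Genes whose pattern was most like each member were ranked by Pearson's r of log2(TPM + 1) over the 59 libraries, among 18174 genes with a mean of at least 1 TPM. The points share libraries, animals and depth, so r is a description. Myl1 was most like Myh4 (r = 0.94), Cacng1 (0.92) and Tnnc2 (0.92), and Mylpf most like Tnnc2 (0.93), Ppp1r27 (0.92) and Atp2a1 (0.92). Myl3 was nearest to myoglobin (Mb, 0.94), Myl4 to Lrrc10 (0.81) and Myl7 to Nppa (0.80). Myl9 was nearest to Tgfb1i1 (0.92), Actc1 (0.91) and smooth muscle actin (Acta2, 0.91). Myl2 (Twf2, 0.77) and Myl6 (Rpl36al, 0.71) had no gene as near as these. Among the members themselves, Myl1 and Mylpf had an r of 0.86 and Myl4 and Myl7 one of 0.78. Myl3 had an r of 0.64 with Myl2 and, as high, with Myl1, which is not its usual partner, and Myl6 and Myl9 had an r of 0.43.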

How the data were processed

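RNA-seq gene tables of 59 libraries were used. The authors' deposited tables hold expected counts per gene (unit: estimated counts, 54.8% of them whole) and TPM, which sum to 1000000 per library. Per the submitters' processing notes, RSEM and Bowtie 0.12.8 were used. The genome build is not given in the sources used here, nor is the annotation. RSEM divides reads shared between genes by estimate, so levels of closely related genes are uncertain.

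Expected counts were rounded and tested with edgeR 4.0.16 (R 4.3.3; quasi-likelihood test, TMM scaling, filterByExpr, Benjamini-Hochberg adjustment over all genes tested) at an adjusted p of 0.05 and an absolute log2 fold change of 1. One fit covered the 26 libraries of 4 muscle types, and another 20 libraries of 10 sites with 2 animals (retina sides of T3F summed); T426 was set against T3F over 7 sites with the site as a block. The SE given with an edgeR change is the absolute log2 fold change over the square root of the test's F statistic. It thus restates the test and was not estimated apart from it. The animal named in the labels pairs libraries across sites. The other 18 libraries entered no test. The edgeR fit was tried on simulated counts for smooth-walled organs against central nervous tissue only. The other contrasts, DESeq2 and limma were not tried in this way. DESeq2 1.42.0 and limma 3.58.1 (on log2 of TPM plus 1 or 0.1), RLE scaling, no filter, an animal block and leaving out libraries were alternatives. TPM shares and likeness used Python 3.11.15. The members and gene lists were chosen with earlier results of these data known. All members were named; of pathway lists, up to 4 genes per comparison by smallest adjusted p and values of heavy and other light chains; of likeness, the 3 genes of highest r; of markers, those highest in a library or at 0. Counting intervals and floors cover counting error only, with a floor of 3 counts.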

Additional observations from a re-analysis of the deposited data

Results flagged for a closer look

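Among the 10 central nervous libraries, single libraries stood apart from the rest for 3 members, by a gap between the extreme library and its nearest neighbour that was large against the whole range. Myl1 was at 14.7 TPM in the caudal cortex of T3F, where the next highest level was 5.51 TPM. Myl3 was at 4.55 TPM in the midbrain of T3F, where the next was 0.611 TPM. Myl6 was at 12.02 TPM in the hippocampus of T426, the shallower of the hippocampus libraries and one with germ cell markers at a sum of 44617 TPM, where the next lowest was 27.9 TPM. For normally distributed values chance alone marks about 1 in 20 groups in this way. These TPM values were low and skewed, and their rate was not measured.

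Libraries that entered no test held striated isoforms at more than 10 times the highest central nervous level. Myl1 was at 148.1 TPM in bone marrow, 3288 TPM in the esophageal junction and 2783 TPM in trachea. Mylpf was at 64.2 TPM in bone marrow, 1845 TPM in the esophageal junction, 71.5 TPM in spleen, 330.6 TPM in thymus and 818.5 TPM in trachea. Myl3 was at 5767 TPM in the esophageal junction and 317.5 TPM in trachea. Myl4 was at 49.7 TPM in bone marrow.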

How the results depend on the processing

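Members called in skeletal muscle against heart numbered 2, but 4 by DESeq2, 1 without T426 and 1 in T3F alone (1 to 1 leaving out single libraries); all genes called went from 668 to 1412, 318 and 128 (235 to 286). Against smooth-walled organs, 4269 genes fell to 1938 without T426 and 1932 in T3F alone (1868 to 2171; members 4 to 4). For heart against smooth-walled organs, T173F alone gave 0 members and 0 genes by edgeR (2375 at an unadjusted p under 0.05) and DESeq2 3832 genes (546 to 1108; members 3 to 4). Smooth-walled organs against central nervous tissue had 3 members by limma with either pseudocount. Among 10 sites, 3 members were called without T426, with 1446 genes, 10949 by DESeq2 and 12559 and 12479 by limma (members 5 to 6, genes 5667 to 12521); pairs of member and site numbered 8 without T426 (14 to 20). T426 against T3F gave 499 genes by DESeq2, 149 without the filter, 7 and 7 by limma, 3 with no replicate block and 5 without liver (1 to 3; members 0 to 0). With the animal as a replicate block in the other fits, member calls changed for Myl6 in heart (above) and for Myl9 and Mylpf in ovary and Myl9 in retina, and no count moved by over 1.5 times.

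Log2 changes turned sign for Myl4 in skeletal muscle against smooth-walled organs (2.17 by DESeq2, 2.20 without renal artery), Myl4 in smooth-walled organs against central nervous tissue (-0.71 by DESeq2, -0.43 by limma with the pseudocount of 0.1, -0.65 without renal artery), and Myl1 in heart against smooth-walled organs (-2.22 in T173F alone). Between T426 and T3F they turned for Mylpf (-0.028 without the filter, -0.44 and -0.44 by limma, -0.58 with no replicate block, -0.27 without liver), Myl2 (-0.11 and -0.23 by limma) and Myl9 (0.22 with no replicate block, 0.30 without liver). Leaving out single libraries gave ranges of -4.46 to 2.60 for Myl3, -4.91 to 3.38 for Myl2 and -1.94 to 1.05 for Myl6 in skeletal muscle against heart, of -2.26 to 2.29 for Myl1 and -8.80 to 10.99 for Myl7 in heart against smooth-walled organs, and, leaving out single sites, of -0.81 to 0.44 for Myl1, -0.029 to 0.39 for Mylpf, -0.47 to 0.45 for Myl2 and -0.47 to 0.14 for Myl9 in T426 against T3F. The cause was not tested. Of 908 alternatives over 55 member values, 784 kept direction and side of the threshold. Many of these left out 1 library of another site, or concerned values not called in the main fit. The share therefore does not measure how firm a call was. By counts in place of TPM, Myl1 took 49.7% and Myl3 49.0% of essential chains in the esophageal junction, which turns their order. Depth limits the testis of T424 most, where 3 counts of Myl4 were worth 3.81 TPM, and of the muscle libraries that of T426 (2.94 TPM).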
